A study of Homo sapiens with 36 samples.

Results

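SHP1705 is a small molecule that stabilizes cryptochrome (CRY) proteins. Its effect alone after 8 h was read across all genes from 6 polyA RNA-seq libraries of the MDA-MB-231 line, 3 from cells given 10 µM SHP1705 and 3 from cells given DMSO, the solvent of the drug. They are 6 of the 36 libraries of the series and belong to a set of 12 in which MG132, a proteasome inhibitor, was given at 100 nM, alone or with SHP1705, for 8 h. The other 24 libraries form 2 sets with carfilzomib, another proteasome inhibitor, at 10 nM for 8 h or 24 h. Their DMSO and SHP1705 arms at 24 h, 3 libraries each, are used here for values beside those at 8 h. MDA-MB-231 is an established human triple negative breast cancer line, grown in medium with fetal bovine serum, and all groups come from this 1 line. The 6 libraries hold 34539920 to 38703513 counts each. Whether replicates of a group are separate cultures cannot be read from the labels, so each p-value sets a difference against a spread that may be technical.

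Cryptochromes and Period proteins are the repressing arm of the circadian clock. The dimer of BMAL1 (gene symbol ARNTL in these tables) with CLOCK or NPAS2 binds E-box sequences and drives the Period, cryptochrome, REV-ERB and PAR bZIP genes. Cryptochrome and Period proteins bind that dimer and switch it off, which lowers their own genes in turn. REV-ERB receptors repress ARNTL, NPAS2 and NFIL3 through elements that hold the letters AGGTCA, and ROR receptors activate through the same elements. DBP, TEF and HLF activate D-box elements, which NFIL3 represses.

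The promoter windows of 7 clock genes are shown. Several of the largest changes lie among clock genes, and these windows were chosen because they hold elements of the clock. They are from RefSeq on GRCh38.p14, run from 250 bases before to 50 bases after an annotated start, and are written 5′ to 3′ on the strand of the gene. Capitals mark an E-box (CACGTG), its variant CACGTT, a D-box (TTATGTAA) or the letters AGGTCA, searched on both strands, so a run of capitals can be the reverse complement. CIART lies at chr1:150282304-150282603 (plus strand), NR1D2 at chr3:23945871-23946170 (plus, the second of its windows), TEF at chr22:41367205-41367504 (plus) and PER2 at chr2:238288561-238288860 (minus). CRY1 lies at chr12:107093500-107093799 (minus), PER3 at chr1:7784041-7784340 (plus) and BMAL1 at chr11:13277540-13277839 (plus).
CIART: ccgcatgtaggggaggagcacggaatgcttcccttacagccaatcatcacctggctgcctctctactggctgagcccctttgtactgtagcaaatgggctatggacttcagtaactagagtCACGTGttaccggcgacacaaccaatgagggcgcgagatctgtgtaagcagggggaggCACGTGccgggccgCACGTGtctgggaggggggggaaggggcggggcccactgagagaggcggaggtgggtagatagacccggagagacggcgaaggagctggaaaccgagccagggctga
NR1D2: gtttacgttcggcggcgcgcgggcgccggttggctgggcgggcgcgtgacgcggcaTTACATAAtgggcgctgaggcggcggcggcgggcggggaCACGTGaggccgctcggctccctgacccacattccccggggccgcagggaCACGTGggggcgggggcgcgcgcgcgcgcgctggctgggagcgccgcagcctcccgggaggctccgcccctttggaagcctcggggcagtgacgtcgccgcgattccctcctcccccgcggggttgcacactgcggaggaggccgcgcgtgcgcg
TEF: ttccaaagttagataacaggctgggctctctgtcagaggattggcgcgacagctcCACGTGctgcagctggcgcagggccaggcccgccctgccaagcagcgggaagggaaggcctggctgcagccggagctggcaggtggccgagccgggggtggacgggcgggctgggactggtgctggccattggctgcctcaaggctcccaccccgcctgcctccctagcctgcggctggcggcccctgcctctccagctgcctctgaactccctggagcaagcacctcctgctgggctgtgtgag
PER2: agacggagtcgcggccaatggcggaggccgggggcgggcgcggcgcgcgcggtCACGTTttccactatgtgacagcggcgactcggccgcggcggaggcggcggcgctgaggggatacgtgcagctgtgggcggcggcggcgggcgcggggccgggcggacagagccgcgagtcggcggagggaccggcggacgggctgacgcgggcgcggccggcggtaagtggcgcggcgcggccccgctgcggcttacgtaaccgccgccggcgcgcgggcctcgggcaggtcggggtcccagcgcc
CRY1: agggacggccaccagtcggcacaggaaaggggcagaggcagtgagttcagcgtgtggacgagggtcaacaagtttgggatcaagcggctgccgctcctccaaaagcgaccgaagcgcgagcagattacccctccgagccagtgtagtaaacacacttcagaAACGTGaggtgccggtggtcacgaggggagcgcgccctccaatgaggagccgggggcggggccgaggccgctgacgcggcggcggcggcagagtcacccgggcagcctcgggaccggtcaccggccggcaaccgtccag
PER3: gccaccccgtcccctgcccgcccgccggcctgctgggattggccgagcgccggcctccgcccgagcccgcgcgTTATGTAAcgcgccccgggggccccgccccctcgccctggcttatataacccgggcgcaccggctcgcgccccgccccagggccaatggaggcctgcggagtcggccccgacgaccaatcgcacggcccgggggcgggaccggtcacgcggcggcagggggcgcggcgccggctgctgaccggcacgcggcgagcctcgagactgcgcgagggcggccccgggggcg
BMAL1: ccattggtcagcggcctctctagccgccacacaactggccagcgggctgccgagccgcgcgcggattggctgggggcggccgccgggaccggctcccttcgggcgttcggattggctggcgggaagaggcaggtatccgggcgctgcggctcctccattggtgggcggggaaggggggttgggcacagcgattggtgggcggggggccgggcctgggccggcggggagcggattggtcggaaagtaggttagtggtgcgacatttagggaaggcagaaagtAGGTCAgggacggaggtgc

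CIART held 3 E-boxes, 129, 71 and 57 bases before the start. NR1D2 held 2 E-boxes, 155 and 105 bases before the start, and a D-box 194 bases before it. TEF held an E-box 195 bases before the start, and PER3 held a D-box 177 bases before it. PER2 and CRY1 held the variant CACGTT, 197 and 89 bases before the start. BMAL1 held AGGTCA 31 bases after the start. Of 35116 promoter windows in the table, 7.26% held CACGTG, 5.34% held CACGTT, 0.886% held TTATGTAA and 13.8% held AGGTCA. The windows shown were chosen for a match, so setting them beside these shares is no test of clock genes. The windows of DBP and NPAS2 held none of these letters, nor did the other windows of PER3, BMAL1 and NR1D2. A match describes the letters of a window and is not a bound site.

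SHP1705 changed many genes by small amounts and a short series of clock genes by large ones. A gene is called here at an adjusted p under 0.05 (edgeR quasi-likelihood test, Benjamini-Hochberg adjustment over all genes tested). By that rule 1249 of 16591 genes were called (7.53%), 572 of them higher (3.45%) and 677 lower (4.08%), and 3495 had an unadjusted p under 0.05. The median size of the called changes was 0.20 on the log2 scale. A fitted change of at least 1.25-fold was found for 203 of the called genes (96 higher, 107 lower), of at least 1.5-fold for 37 (14 higher, 23 lower) and of at least 2-fold for 15 (3 higher, 12 lower). The 12 included PER2, PER3, NR1D1, NR1D2, DBP and TEF, and otherwise SLC44A4, PARVG, AZU1, TBX19, PDCD6IPP1 and TMSB4XP6. The 3 were BMF, LY6G5C and KIR3DX1, named here after their values were seen. BMF, which encodes a BH3-only promoter of apoptosis, was at 0.688, 0.911 and 0.525 CPM in DMSO and at 1.26, 1.68 and 2.07 with SHP1705, where CPM is the count divided by the scaled library size and given per 1000000. Its call was lost without DMSO replicates 1 or 3 or SHP1705 replicate 3. KIR3DX1 was at 0, 0 and 0 CPM in DMSO and at 0.485, 0.0262 and 0.466 with SHP1705, so its fitted fold depends on the prior count and no fold is given.

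**Figure D1:**
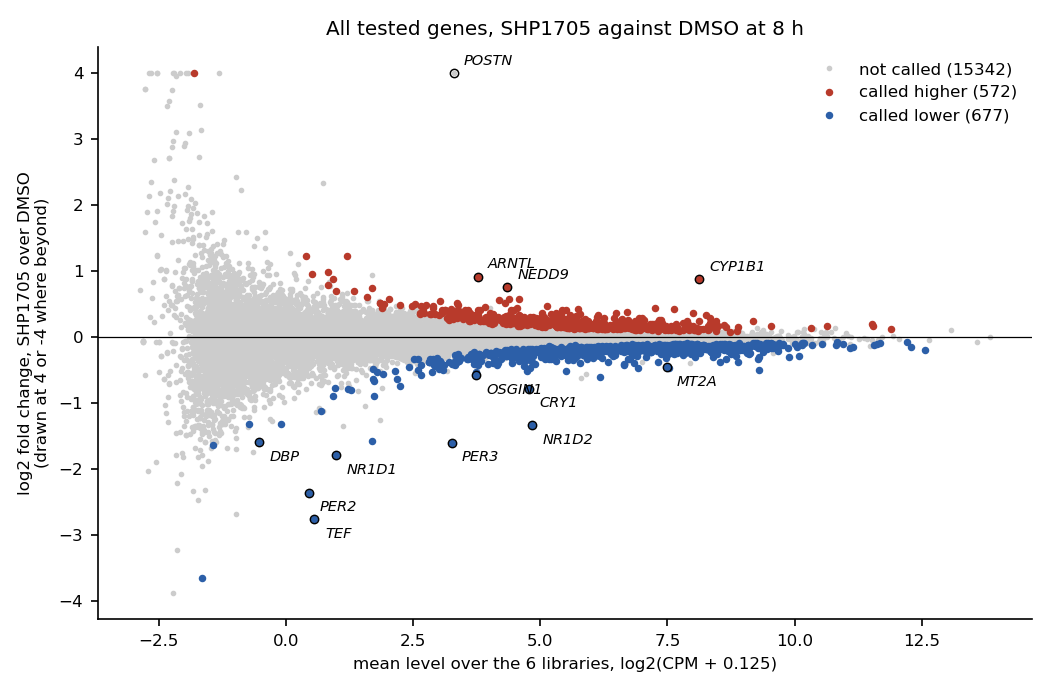
Each point is 1 of the 16591 tested genes, with the mean level over the 6 libraries on the x axis, as log2(CPM + 0.125), and the log2 fold change of SHP1705 over DMSO on the y axis. Most of the 1249 called genes lie close to 0, while PER3, NR1D2, PER2, NR1D1, TEF and DBP lie far below them and POSTN is high without a call.

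E-boxes can be counted over all promoter windows. Of the tested genes, 11792 had a window under their symbol. CACGTG was in a window of 89 of the 503 genes called lower (17.7%), 66 of the 456 called higher (14.5%) and 1269 of the 10833 not called (11.7%). A gene with several windows counts when any of them holds the letters. CACGTT was in a window of 7.36% of those called lower, 7.24% of those called higher and 7.91% of the others, so the variant showed no such order.

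The libraries did not carry equal weight, and SHP1705 replicates 2 and 3 stood apart in POSTN, the gene of the matrix protein periostin (chromosome 13, 37562585 to 37598768, GRCh38.p14). POSTN was at 0.255, 0.11 and 0.111 CPM in DMSO and at 0.267, 28.2 and 29.4 with SHP1705. It had 10, 4 and 4 counts in DMSO and 11, 1075 and 1134 with SHP1705. Replicate 1 lay with the DMSO libraries and replicates 2 and 3 far above them. The fitted log2 fold change was 6.86 ± 2.29 (SE), with an adjusted p of 0.0769, so POSTN was not called. The number of called genes was 783, 619 and 825 without DMSO replicates 1, 2 and 3, and 780, 689 and 892 without SHP1705 replicates 1, 2 and 3. With replicate 1 as the only SHP1705 library, which is then assumed to vary like the other groups, 235 genes were called, and 220 of them were among the 1249.

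Replicate 1, the SHP1705 library without POSTN, moved in the direction of the fit in all 1249 called genes, and so did replicates 2 and 3. Since these libraries made the calls, that is a description of them. The median size of the log2 ratio to the DMSO mean over the called genes was 0.20 in replicate 1, 0.21 in replicate 2 and 0.19 in replicate 3. Replicate 1 moved further than the mean of replicates 2 and 3 in 654 of the 1249. It moved less than 0.5 times as far in 60 (32 called higher, 28 lower) and more than 2 times as far in 14. The examples that follow were chosen after their values were seen. NBPF1, a gene of the neuroblastoma breakpoint family with near-identical copies that can share reads, was at 53, 51.4 and 50 CPM in DMSO and at 55.2, 66.5 and 61.5 with SHP1705 (log2 fold change 0.25 ± 0.06, adjusted p = 0.0174). GSDMD, the gene of the pore protein gasdermin D, was at 51.2, 49.0 and 46.9 CPM in DMSO and at 45.6, 39.2 and 39.3 with SHP1705 (-0.24 ± 0.06, adjusted p = 0.0172). In both, replicate 1 was the SHP1705 library nearest to DMSO. HSP90AA1, an HSP90 chaperone gene, was at 3310, 3257 and 3248 CPM in DMSO and at 3196, 2876 and 3036 with SHP1705 (-0.11 ± 0.03, adjusted p = 0.04), and its call was lost without DMSO replicates 1, 2 or 3 or SHP1705 replicates 2 or 3. DUSP4, a MAP kinase phosphatase gene, was at 247, 246 and 250 CPM in DMSO and at 257, 273 and 278 with SHP1705 (0.12 ± 0.03, adjusted p = 0.0195), and its call was lost without DMSO replicates 1 or 2 or SHP1705 replicates 2 or 3.

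Other genes of low level were also high in the libraries with POSTN. POSTN alone was at least 4 times higher in SHP1705 replicates 2 and 3 than in each of the other 4 libraries and at 1 CPM or more. With 2 times and 0.25 CPM, limits chosen after the values were seen, 35 genes met the rule. Of these 33 were tested and 0 called by edgeR, and 15 had an unadjusted p under 0.05. The libraries chose these genes, so the figures are a description. KIF5C, a neuronal kinesin gene, was at 4, 3 and 6 counts in DMSO and 5, 41 and 29 with SHP1705. PRRX1, a mesenchymal homeobox gene, was at 6, 5 and 5 counts in DMSO and 10, 34 and 36 with SHP1705. GPM6A, which encodes a neuronal membrane glycoprotein, was at 9, 8 and 8 counts in DMSO and 2, 36 and 42 with SHP1705. In all 3 genes replicate 1 was near the DMSO libraries or below them, while replicates 2 and 3 were above. CDKN2A, a cell cycle inhibitor gene, was at 1, 1 and 0 counts in DMSO and 4, 29 and 29 with SHP1705. Whether the counts of POSTN and these genes come from the labelled cells or from another sample was not tested, so their levels with SHP1705 cannot be read as an effect of the drug.

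The 6 libraries with MG132 were not used to choose these genes. POSTN was at 33.6, 0.161 and 173 CPM with MG132 alone and at 98.3, 222 and 242 CPM with both drugs. The other 34 genes summed to 3.72, 3.59 and 3.51 CPM in DMSO and to 3.35, 17.9 and 17.0 CPM with SHP1705. They summed to 16.9, 5.60 and 65.6 CPM with MG132 alone and to 38.6, 81.8 and 88.8 CPM with both drugs. The order within the SHP1705 group was fixed by the choice of genes. With MG132 alone and with both drugs, the library with the least POSTN also had the lowest sum. In MG132 replicate 2, with POSTN at 6 counts, 17 of the 34 were above the highest DMSO library, against 30 and 31 in MG132 replicates 1 and 3. In the 24 libraries of the carfilzomib sets POSTN had at most 5 counts. The part of MG132 in these sums was not tested.

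**Figure D2:**
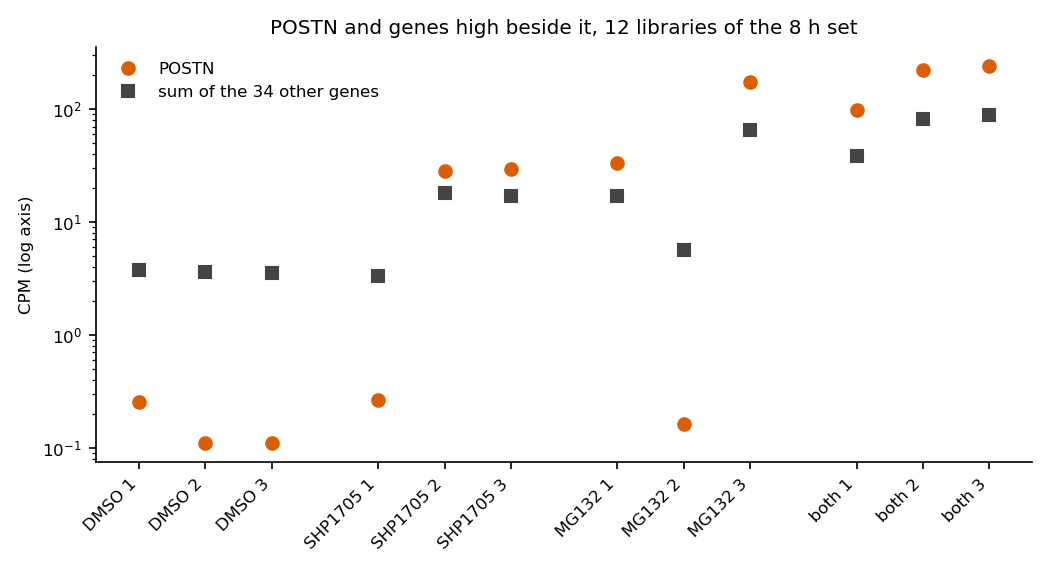
POSTN and the summed level of the 34 other genes are shown in CPM on a log axis for the 12 libraries of the 8 h set, grouped by treatment, with 1 point per library. SHP1705 replicate 1 and MG132 replicate 2 have POSTN near the DMSO libraries, at 0.267 and 0.161 CPM, and SHP1705 replicates 2 and 3 sit at 28.2 and 29.4 CPM.

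Marker levels were those of the labelled line for several of the listed genes. VIM, CD44, AXL and CAV1, genes of the mesenchymal-like state of MDA-MB-231, were at 942 to 1311 CPM in all 6 libraries. ESR1 and PGR, the hormone receptor genes, were at 0.130 CPM or less. TWIST1, which the marker list also held, was at 0.0553 CPM or less. ERBB2, GATA3 and CDH1, which the list held as low, were at 55.3 to 66.7, 6.34 to 7.66 and 1.46 to 2.10 CPM. Of the 15 tested members of the list ERBB2 rose (0.15 ± 0.04, adjusted p = 0.0426) and KRT8 fell. When 1 library was left out, 0 to 1 rose and 0 to 1 fell. The 22 mesenchymal and fibroblast markers summed to 874 to 894 CPM in DMSO, 945 CPM in SHP1705 replicate 1, and 1015 and 1012 CPM in replicates 2 and 3. Without POSTN the sum was 945 to 987 CPM with SHP1705, above DMSO in each library. That sum was mostly FN1, at 411 to 450 CPM in the 6 libraries, and COL5A1, at 291 to 360 CPM. Of its 17 tested members 2 rose, the collagen gene COL5A1 (0.22 ± 0.03) and the cadherin gene CDH11 (0.19 ± 0.04), and 0 fell, and both calls were lost with replicate 1 as the only SHP1705 library. DCN, THY1, FAP, TWIST2 and MFAP5, which mark fibroblasts, were at 0.155 CPM or less in each library. Of the 17 tested, 7 had every SHP1705 library above every DMSO library and 0 below, against 12.8% and 13.1% of all tested genes. CDH2 was at 1.553, 1.215 and 0.9951 CPM in DMSO and 1.092, 2.466 and 2.952 with SHP1705. COL5A2 was at 0.7894, 0.7178 and 0.8016 CPM and 0.8251, 1.18 and 1.191 CPM. TAGLN went the other way, at 6.748, 5.991 and 7.104 CPM and 6.115, 5.534 and 4.687 CPM. They were named after their values were seen. Of the neural and glial markers 9 were tested, of the blood cell markers 7 and of the kidney and liver markers 3. Of the melanocyte markers 2 were tested, and of the endothelial markers 2. In these lists edgeR and DESeq2 called 0 each, with 3, 3, 1, 1 and 0 at an unadjusted p under 0.05. Without SHP1705 replicate 1, 1 melanocyte marker was called higher. Without DMSO replicate 1, 1 blood cell marker was called lower, and without DMSO replicate 3, 1 kidney and liver marker. These tests cannot exclude a split of the SHP1705 libraries as in POSTN. SOX2, a neural marker, was at 0.2037, 0.1104 and 0.1382 CPM in DMSO and 0.04853, 0.4984 and 0.492 with SHP1705. PTPRZ1, another, was at 0.4074, 0.4141 and 0.5529 CPM in DMSO and 0.3883, 1.338 and 0.9322 with SHP1705. Both were named after their values were seen. The neural list's sum, mostly TUBB3, showed no such split, at 67.84 to 71.75 CPM in DMSO and 67.56, 70.5 and 67.98 with SHP1705. The melanocyte sum, mostly MITF, was at 16.88 to 17.75 CPM in DMSO and 17.88, 21.64 and 20.74 with SHP1705. The kidney and liver sum was at 43.7 to 46.16 CPM in DMSO and 45.89, 49.23 and 42.55 with SHP1705. The blood cell sum was at 114.5 to 123.4 CPM and 113.4, 109.5 and 112.6 CPM. The endothelial sum was at 2.725 to 3.258 CPM and 3.47, 3.488 and 3.522 CPM. Of 9 luminal epithelial markers tested KRT8 was called (-0.09 ± 0.02, adjusted p = 0.0247), and it was lost without DMSO replicates 1 or 2 or SHP1705 replicates 1 or 3.

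The Period and cryptochrome genes, the repressors of the clock, were lower with SHP1705. Of the 6 members listed 5 fell and 0 rose, and in all 6 every SHP1705 library was below every DMSO library, which held for 13.1% of all tested genes. PER3 was at 14.7, 13.8 and 14.1 CPM in DMSO and at 5.07, 4.46 and 4.53 with SHP1705, a log2 fold change of -1.60 ± 0.09 (SE, adjusted p = 3.29e-09). Replicates were close in both groups, and replicate 1 was with replicates 2 and 3. CRY1, which encodes cryptochrome 1, was at 38.2, 34.3 and 31.7 CPM in DMSO and at 21, 19.1 and 20.7 with SHP1705 (-0.78 ± 0.06, adjusted p = 2.13e-07). CRY2, which encodes cryptochrome 2, was at 8.02, 6.29 and 6.47 CPM in DMSO and at 4.83, 5.4 and 4.53 with SHP1705 (-0.50 ± 0.11, adjusted p = 0.00764). The groups of both genes were apart, more narrowly in CRY2, whose call was lost without DMSO replicate 1.

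PER2, the Period gene whose window above holds the variant CACGTT, was at 2.55, 1.85 and 1.88 CPM in DMSO and at 0.388, 0.289 and 0.544 with SHP1705 (-2.35 ± 0.27, adjusted p = 3.94e-05). PER1, which glucocorticoid and cAMP signals also induce, was at 2.29, 2.02 and 2.65 CPM in DMSO and at 1.29, 1.18 and 1.29 with SHP1705 (-0.89 ± 0.20, adjusted p = 0.00976). Its call was lost without DMSO replicate 3, and PER2 was called whichever library was left out. CIART, a further repressor of the BMAL1 dimer and the window with 3 E-boxes, was at 0.535, 0.331 and 0.47 CPM in DMSO and at 0.315, 0.105 and 0.104 with SHP1705. Its log2 fold change of -1.32 ± 0.51 was not called (adjusted p = 0.13), and replicate 1 lay nearest to DMSO. With replicate 1 as the only SHP1705 library PER2, PER3 and CRY1 kept their calls, and PER1 and CRY2 lost theirs.

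The REV-ERB genes fell, and RORA and RORB were not called. NR1D2, which encodes REV-ERB beta, was at 38, 42 and 43 CPM in DMSO and at 17.1, 14.5 and 17.3 with SHP1705 (-1.33 ± 0.07, adjusted p = 1.29e-09). NR1D1, which encodes REV-ERB alpha, was at 3.21, 2.54 and 2.87 CPM in DMSO and at 0.825, 0.656 and 1.01 with SHP1705 (-1.79 ± 0.22, adjusted p = 7.77e-05). Both were lower in each SHP1705 library than in every DMSO library, and both kept their calls with replicate 1 as the only SHP1705 library. RORA, a ROR receptor gene, was at 0.912 to 1.16 CPM in DMSO and 0.801 to 1.44 with SHP1705, with overlapping groups. RORB was at 0.166 to 0.331 CPM in DMSO and 0.181 to 0.388 with SHP1705, also overlapping.

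Of the 5 tested genes of the PAR bZIP and DEC families with NFIL3, 3 fell and 1 rose. TEF, an activator at D-boxes, was at 2.5, 2.51 and 2.07 CPM in DMSO and at 0.558, 0.289 and 0.181 with SHP1705, a log2 fold change of -2.76 ± 0.31 (adjusted p = 3.94e-05). DBP, its relative, was at 0.789, 0.856 and 0.912 CPM in DMSO and at 0.218, 0.315 and 0.311 with SHP1705 (-1.59 ± 0.35, adjusted p = 0.00886), with 31, 31 and 33 counts in DMSO and 9, 12 and 12 with SHP1705. Both groups were apart, at levels where counting error is large. BHLHE40, which encodes the E-box repressor DEC1, was at 62, 54.2 and 56.4 CPM in DMSO and at 48.3, 50.6 and 46.1 with SHP1705 (-0.25 ± 0.05, adjusted p = 0.00603). BHLHE41, which encodes DEC2, was at 4.35, 4.2 and 3.81 CPM in DMSO and at 2.79, 3.33 and 3.16 with SHP1705 and was not called (-0.42 ± 0.13, adjusted p = 0.0662). NFIL3, the repressor at D-boxes, rose and was at 19.4, 19.7 and 19.9 CPM in DMSO and at 28.9, 26 and 25.4 with SHP1705 (0.45 ± 0.07, adjusted p = 0.000788). With replicate 1 as the only SHP1705 library TEF and NFIL3 kept their calls, and DBP and BHLHE40 lost theirs. HLF had too few counts for a test.

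Of the 4 activators of the clock 2 rose and 0 fell. ARNTL, which encodes BMAL1, was at 10.3, 8.95 and 8.85 CPM in DMSO and at 19.1, 16 and 17.9 with SHP1705, a log2 fold change of 0.92 ± 0.09 (adjusted p = 3.76e-06). NPAS2, whose protein can take the place of CLOCK in the dimer, was at 62.1, 62.1 and 62.8 CPM in DMSO and at 78, 78.6 and 80.1 with SHP1705 (0.34 ± 0.04, adjusted p = 4.52e-05). Both kept their calls whichever library was left out and with replicate 1 as the only SHP1705 library. CLOCK was at 63 to 65.9 CPM in DMSO and 66.7 to 70.5 with SHP1705, which was not called (0.10 ± 0.04, adjusted p = 0.145). ARNTL2, a paralog of ARNTL, was at 85.1 to 85.9 CPM in DMSO and 80.4 to 87.2 with SHP1705, with overlapping groups. Of 16 tested genes that act on clock proteins, such as kinases and ubiquitin ligases, edgeR and DESeq2 called 0, 6 had an unadjusted p under 0.05, and the median log2 fold change was 0.03.

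**Figure D3:**
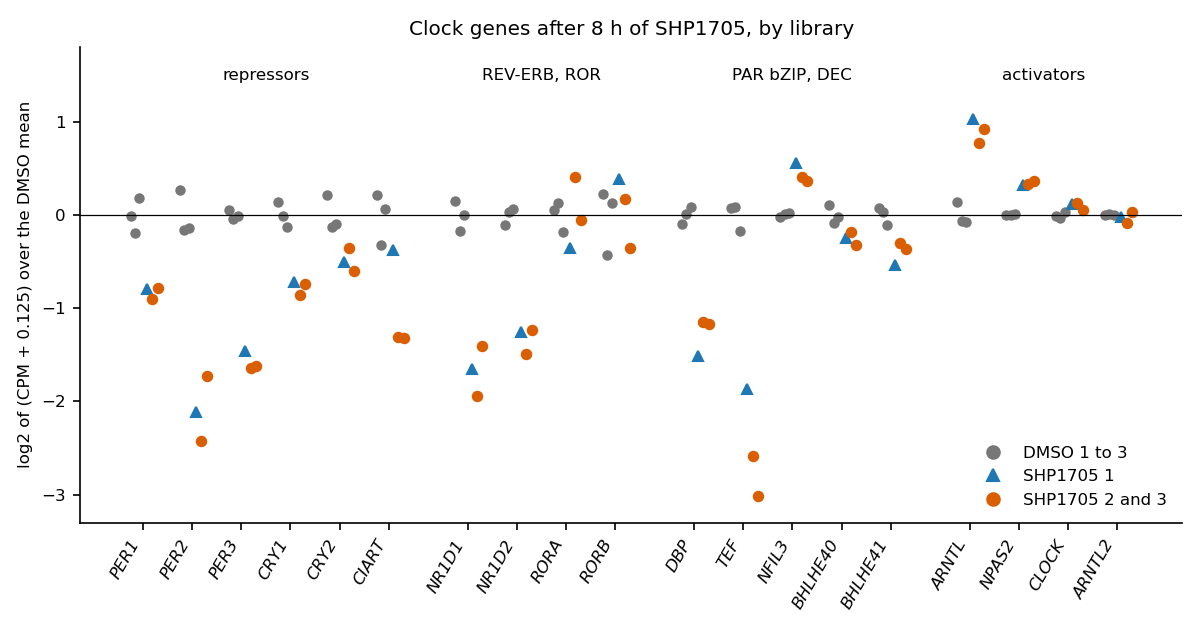
Each point is 1 library, drawn as the log2 ratio of (CPM + 0.125) to that of the DMSO mean, for clock genes grouped by role, with SHP1705 replicate 1 as triangles. The SHP1705 libraries lie below the DMSO libraries for the 6 repressors and for NR1D1, NR1D2, DBP and TEF, and above them for ARNTL, NPAS2 and NFIL3.

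The same dose at 24 h, in the carfilzomib set, gave 722 called genes of 16183 (4.46%), 316 higher (1.95%) and 406 lower (2.51%). PER3 was at 22.6, 22.9 and 18.9 CPM in DMSO and at 0.709, 1.01 and 1.43 with SHP1705 at 24 h (log2 fold change -4.34 ± 0.17). CRY1 was at 33.8, 35.6 and 37.5 CPM in DMSO and at 5.63, 6.41 and 5.51 with SHP1705 at 24 h (-2.61 ± 0.09). NR1D2 was at 48.4, 45.8 and 48.3 CPM in DMSO and at 24.7, 26.4 and 23.8 with SHP1705 at 24 h (-0.93 ± 0.08). PER3 and CRY1 had a larger fold change at 24 h than at 8 h, and NR1D2 a smaller one. ARNTL was at 1.60 ± 0.12 at 24 h against 0.92 ± 0.09 at 8 h, and PER2 at -5.18 ± 0.41 against -2.35 ± 0.27. CIART, not called at 8 h, was called at 24 h (-2.68 ± 0.57, adjusted p = 0.00596), as was BHLHE41 (-1.20 ± 0.16, adjusted p = 3.05e-05).

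The test of the difference between the times depended on which libraries entered it. Over all 36 libraries 4 of 17389 genes had a called difference (0.023%), MYL9 higher at 24 h (0.00575%) and MTHFD1L, GNPDA1 and MYO19 lower (0.0173%). CRY1 was at -1.83 ± 0.37 (adjusted p = 0.0796) and PER3 at -2.74 ± 0.71 (adjusted p = 0.589), so neither was called. That fit holds the carfilzomib 8 h set, in which clock genes did not follow the labels. PER3 there was at 8.19, 2.06 and 1.55 CPM in the libraries labelled DMSO and at 2.25, 9.62 and 7.91 CPM in those labelled SHP1705. ARNTL was at 6.42, 15.2 and 14.5 CPM and at 14, 7.71 and 7.84 CPM. In both genes replicate 1 and replicates 2 and 3 of a label lay apart, in opposite order between the labels, so no effect of SHP1705 was drawn from that set. Without its 12 libraries, an alternative added after the data were seen, 214 of 17793 genes (1.2%) had a called difference, 86 higher and 128 lower at 24 h. PER3 was then at -2.74 ± 0.20 (adjusted p = 1.21e-10), CRY1 at -1.83 ± 0.11 (adjusted p = 1.36e-12), and PER1, PER2 and CRY2 were also called lower. ARNTL was called higher (0.68 ± 0.15, adjusted p = 0.0129), and the differences of NR1D2 (0.40 ± 0.11, adjusted p = 0.0704) and NR1D1 (0.49 ± 0.31, adjusted p = 0.588) were not called. The times come from separate sets, so time and set cannot be told apart.

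**Figure D4:**
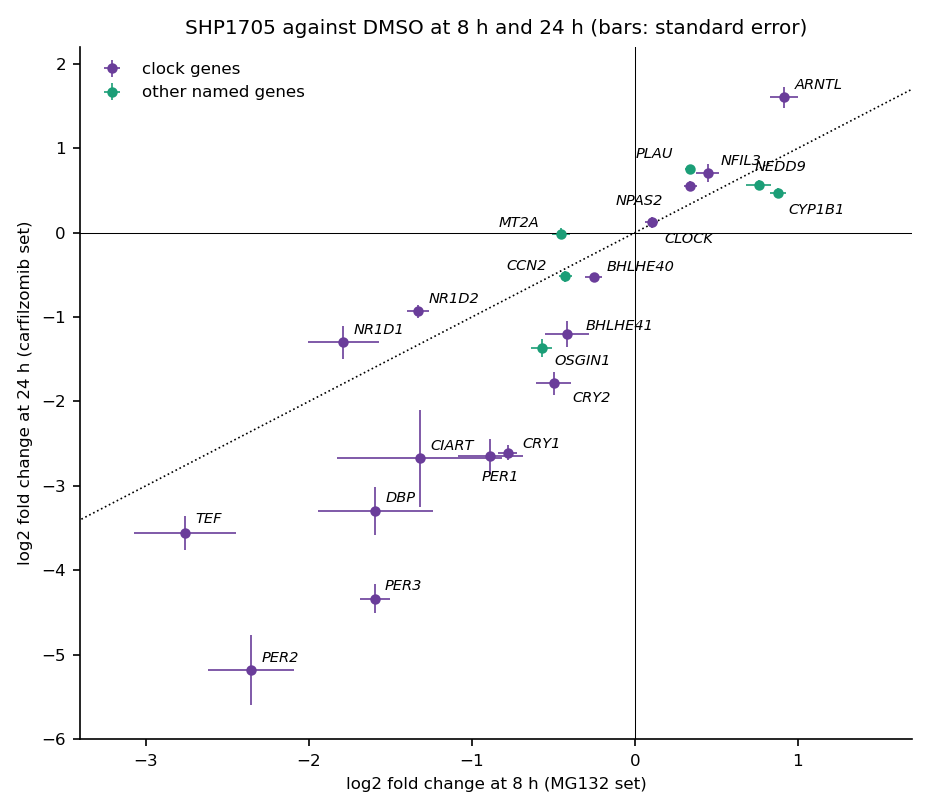
Log2 fold changes of SHP1705 over DMSO are shown at 8 h (x axis) and 24 h (y axis) for clock genes and other named genes, with standard errors as bars and the line of equal change dotted. PER3, PER2, CRY1 and CRY2 lie below the line and NR1D1 and NR1D2 above it, and MT2A, at -0.45 ± 0.05 at 8 h, is at -0.01 ± 0.06 at 24 h.

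Of the 1248 genes called at 8 h that could be tested at 24 h, 211 were also called there, 208 in the same direction and 3 in the opposite one. The 208 are 16.7% of the 8 h calls and 28.8% of the 24 h calls. The lists below order the 8 h calls by function, and each count can be read against the 3.45% of all genes called higher and the 4.08% called lower.

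Targets and partners of the aryl hydrocarbon receptor (AHR), a ligand-activated factor of the bHLH-PAS family to which BMAL1 and CLOCK also belong, were higher. Of 13 tested 6 rose and 0 fell. The median log2 fold change of the list was 0.13, against -0.0022 for all genes. CYP1B1, a cytochrome P450 gene (chromosome 2, 38067509 to 38076151), was at 199, 181 and 205 CPM in DMSO and at 351, 357 and 369 with SHP1705 (0.88 ± 0.05, adjusted p = 3.29e-09). Every SHP1705 library was far above every DMSO library. TIPARP, which encodes a repressor of AHR, was at 45.7, 42.3 and 49.3 CPM in DMSO and at 60.9, 62.2 and 62 with SHP1705 (0.43 ± 0.05, adjusted p = 9.93e-05). EREG, which encodes the growth factor epiregulin, was at 32.8, 32 and 33 CPM in DMSO and at 41.6, 40.2 and 42.9 with SHP1705 (0.35 ± 0.05). These 3 kept their calls whichever library was left out and with replicate 1 as the only SHP1705 library. CYP1A1, the classical target, was at 8.45, 8.14 and 7.35 CPM in DMSO and at 9.97, 10.8 and 11.5 with SHP1705 (0.43 ± 0.11, adjusted p = 0.0168), and its call was lost without DMSO replicates 2 or 3 or SHP1705 replicates 2 or 3. NFE2L2 and AHR itself, at 0.13 ± 0.03 and 0.13 ± 0.04, were lost in 4 and 5 of the 6 fits that each left out 1 library. The number of members called higher was 4, 3 and 4 without DMSO replicates 1, 2 and 3, and 4, 5 and 3 without SHP1705 replicates 1, 2 and 3.

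At 24 h CYP1B1 was at 206, 206 and 217 CPM in DMSO and at 312, 297 and 264 with SHP1705 at 24 h (0.47 ± 0.05), and its difference from 8 h was -0.41 ± 0.23 over 36 libraries (adjusted p = 1) and -0.41 ± 0.08 over 24 (adjusted p = 0.00316). CYP1A1 was at 0.93 ± 0.15 at 24 h. The searched promoter windows of TIPARP and CYP1A1 did not hold the letters TNGCGTG of the AHR response element on either strand. Of all windows 5.51% hold these letters, as did a window of 10.1% of the genes called higher and 9.0% of those not called. Bases beyond the windows were not searched, and CYP1B1 had no window. The search therefore cannot show whether these genes have a response element.

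Genes of urokinase and its receptor moved in opposite directions. PLAU, the gene of urokinase (chromosome 10, 73908832 to 73917494), was at 272, 265 and 272 CPM in DMSO and at 336, 346 and 338 with SHP1705 (0.34 ± 0.03, adjusted p = 1.5e-06). PLAUR, the gene of the urokinase receptor, was at 68.9, 70.3 and 70 CPM in DMSO and at 60.3, 58.6 and 59.2 with SHP1705 (-0.23 ± 0.04, adjusted p = 0.000771). The gene of the enzyme thus rose and that of its receptor fell, with no overlap between groups in either gene. At 24 h PLAU was at 0.76 ± 0.04, while PLAUR was not called (-0.09 ± 0.06).

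Of 20 genes listed for YAP and TGF-beta signalling 2 rose and 3 fell. CCN2, which encodes a matricellular growth factor, was at 114, 113 and 118 CPM in DMSO and at 89.1, 83.9 and 83.3 with SHP1705 (-0.43 ± 0.04, adjusted p = 3.36e-06). Its relative CCN1 was at 519, 501 and 533 CPM in DMSO and at 462, 453 and 448 with SHP1705 (-0.19 ± 0.03). SMAD3, a mediator of TGF-beta signals, rose by 0.24 ± 0.04, and TEAD1, a partner of YAP, by 0.17 ± 0.03. TGFB1 had an adjusted p of 0.0498 and was lost in 6 of the 6 fits that each left out 1 library. NEDD9, which encodes a scaffold protein of focal adhesions, was at 16.6, 14.1 and 14.5 CPM in DMSO and at 26.6, 26 and 23.9 with SHP1705 (0.76 ± 0.08, adjusted p = 8.94e-06). Of the 23 tested adhesion and cytoskeleton genes it was 1 of 3 that rose, and 1 fell. The rest of these calls, ITGA2 (0.13 ± 0.03), VCL (0.10 ± 0.03) and ITGA3 (-0.08 ± 0.02), were lost in 3, 4 and 5 of the 6 fits.

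Transcripts of cytosolic ribosomal proteins were lower as a group, each by a small amount. Of 30 tested 23 fell and 0 rose, with a median log2 fold change of -0.14. In 28 every SHP1705 library was below every DMSO library, which held for 13.1% of all tested genes. RPS19, of the small subunit, was at 453, 478 and 474 CPM in DMSO and at 384, 392 and 405 with SHP1705 (-0.25 ± 0.04, adjusted p = 0.000916). RPL27, of the large subunit, was at 493, 537 and 480 CPM in DMSO and at 405, 399 and 432 with SHP1705 (-0.29 ± 0.05, adjusted p = 0.000977). RPL35 was at 668, 731 and 685 CPM in DMSO and at 543, 560 and 595 with SHP1705 (-0.30 ± 0.05, adjusted p = 0.00186). Counts on nuclear ribosomal RNA genes were 0.128 to 0.139% of the total in DMSO and 0.104 to 0.112% with SHP1705, also without overlap, and their part in the counts of this and the other lists was not tested. The number of ribosomal protein genes that fell was 21, 14 and 18 without DMSO replicates 1, 2 and 3, and 17, 17 and 20 without SHP1705 replicates 1, 2 and 3, and it was 10 with replicate 1 as the only SHP1705 library. Of the same 30 genes edgeR called 0 at 24 h, with 3 at an unadjusted p under 0.05 and a median of -0.04.

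Pseudogenes, many of them copies of ribosomal protein and other abundant genes that can share reads with their parents, had few calls in the higher direction. Of 1277 tested 4 rose (0.313%) and 61 fell (4.78%), while of 13360 protein coding genes 560 rose (4.19%) and 598 fell (4.48%). Few rises were not particular to pseudogenes, since of 1414 long noncoding RNAs 4 rose (0.283%) and 14 fell (0.99%). The share of pseudogenes that fell was near that of all genes, and the difference between the classes was not tested. RPS10P3, a copy of a ribosomal protein gene, was at 6.72, 8.14 and 7.3 CPM in DMSO and at 4.56, 4.85 and 5.44 with SHP1705 (-0.58 ± 0.11, adjusted p = 0.00353), and EEF1A1P11, a copy of an elongation factor gene, at -0.51 ± 0.10. PFN1P1, RPL41P2 and RPL39P3 were at -0.53 ± 0.14, -0.51 ± 0.11 and -0.47 ± 0.10. PFN1P1 was lost without DMSO replicates 2 or 3 or SHP1705 replicates 1 or 2, and RPL41P2 and RPL39P3 were lost without DMSO replicate 2 or SHP1705 replicate 2. These values are uncertain, since reads could be split between copies.

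Calls among nuclear genes of oxidative phosphorylation and proteasome subunit genes were all in the lower direction. The fitted change was positive in 5 of 26 and 1 of 31 of them. Of 26 oxidative phosphorylation genes 8 fell and 0 rose (median -0.08). COX7C, a subunit of cytochrome oxidase, was at 88.5, 102 and 92.3 CPM in DMSO and at 78.9, 73.8 and 80.2 with SHP1705 (-0.28 ± 0.06, adjusted p = 0.00432). The number that fell was 7, 3 and 6 without DMSO replicates 1, 2 and 3, and 4, 4 and 7 without SHP1705 replicates 1, 2 and 3, and it was 0 with replicate 1 as the only SHP1705 library. Of 31 proteasome subunit genes 6 fell and 0 rose (median -0.07). PSMA7, of the core particle, was at 346, 346 and 343 CPM in DMSO and at 304, 302 and 291 with SHP1705 (-0.21 ± 0.03, adjusted p = 0.000277). That number was 2, 3 and 3 without DMSO replicates 1, 2 and 3, and 5, 3 and 2 without SHP1705 replicates 1, 2 and 3. Of 13 transcripts made in mitochondria 3 rose and 1 fell. ND2, ATP6 and ND4 were the higher ones and ND3 the lower one, and all 4 calls were lost without SHP1705 replicate 2 and without DMSO replicate 2. Mitochondrial mRNA was 3.09 to 3.22% of counts in DMSO and 3.30 to 3.50% with SHP1705.

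Calls also differed by transcript length over all protein coding genes. The median transcript length, taken per gene over its GENCODE v29 transcripts, was 814 nt for the protein coding genes that fell, 1602 nt for those that rose and 1068 nt for those not called. Protein coding genes were ordered by length into 5 groups and kept at a mean over 1 CPM. In the group with the shortest transcripts (161 to 708 nt) 8.82% fell and 4.39% rose. In the group with the longest (2275 to 27174 nt) 2.09% fell and 8.87% rose. In that last group the median log2 ratio to the DMSO mean was 0.045, 0.047 and 0.041 in the SHP1705 libraries and -0.001, -0.009 and 0.009 in the DMSO libraries. In the group with the shortest it was -0.003, -0.003 and -0.006 in the SHP1705 libraries. The median fitted log2 fold changes, from the shortest group to the longest, were -0.004, -0.012, -0.013, 0.012 and 0.043. The part of length in the counts of ribosomal protein, oxidative phosphorylation and proteasome genes was not tested.

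MYC and nucleolar genes were lower in part. Of 30 tested 10 fell and 1 rose (median -0.08). NOP56, a core protein of small nucleolar ribonucleoproteins, was at 151, 146 and 150 CPM in DMSO and at 129, 132 and 126 with SHP1705 (-0.21 ± 0.03, adjusted p = 0.00125). RRP9, which acts in ribosomal RNA maturation, was at 67.7, 66.7 and 61.7 CPM in DMSO and at 56, 56.7 and 53.2 with SHP1705 (-0.24 ± 0.04, adjusted p = 0.00186). MXD4, which encodes an antagonist of MYC, was the member that rose (0.26 ± 0.04). MYC itself was at 86.1, 88.8 and 92.6 CPM in DMSO and at 81.5, 79.2 and 79.1 with SHP1705 (-0.16 ± 0.04, adjusted p = 0.0143), and its call was lost without DMSO replicates 2 or 3 or SHP1705 replicates 2 or 3. The number that fell was 4, 4 and 6 without DMSO replicates 1, 2 and 3, and 5, 5 and 5 without SHP1705 replicates 1, 2 and 3, and it was 1 with replicate 1 as the only SHP1705 library.

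Cell cycle genes gave few calls. Of 29 E2F and DNA replication genes 1 rose and 1 fell, and of 26 genes of G2 and mitosis 1 rose and 1 fell, shares near or below those of all genes. Both falls, RRM2 (-0.12 ± 0.03) and CDC20 (-0.10 ± 0.03), were lost in 6 of the 6 fits that each left out 1 library, and E2F7, the E2F list's rise (0.15 ± 0.04), in 5. CENPF, a kinetochore gene, was the mitotic one that rose (0.16 ± 0.03). Of 14 G1 cyclins and inhibitors 2 rose and 2 fell. Those that rose were CDKN1A (0.19 ± 0.03) and CDKN1B (0.26 ± 0.05), the genes of the inhibitors p21 and p27. Another inhibitor gene, CDKN2D, fell (-0.23 ± 0.06, adjusted p = 0.0209), and its call was lost without DMSO replicates 1 or 3 or SHP1705 replicates 2 or 3. CCND3, the gene of cyclin D3, fell too and was at 178, 179 and 178 CPM in DMSO and at 158, 160 and 160 with SHP1705 (-0.16 ± 0.03, adjusted p = 0.00175). With replicate 1 as the only SHP1705 library 0 of the list were called. CCNG2, the gene of cyclin G2 and outside that list, was at 15.6, 16.4 and 16.5 CPM in DMSO and at 21.2, 23.8 and 24 with SHP1705 (0.51 ± 0.06, adjusted p = 8.85e-05). Of 17 apoptosis regulators 3 fell and 0 rose. The falls numbered 2, 1 and 3 without DMSO replicates 1, 2 and 3, and 2, 2 and 2 without SHP1705 replicates 1, 2 and 3, and 0 with replicate 1 as the only SHP1705 library. MCL1, which encodes a survival protein, was at 313, 313 and 307 CPM in DMSO and at 289, 279 and 291 with SHP1705 (-0.12 ± 0.03, adjusted p = 0.00696).

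Genes of hypoxia and glycolysis were higher in part. Of 32 tested 8 rose and 2 fell (median 0.06), and 6 to 7 rose and 0 to 1 fell when 1 library was left out. VEGFA, the gene of the angiogenic growth factor, was at 92.8, 86.2 and 93.3 CPM in DMSO and at 119, 117 and 119 with SHP1705 (0.38 ± 0.04, adjusted p = 5.84e-06). HIF1A, which encodes the oxygen-regulated subunit of HIF-1, was at 263, 247 and 257 CPM in DMSO and at 309, 296 and 303 with SHP1705 (0.24 ± 0.03, adjusted p = 0.000138). The glucose transporter genes SLC2A1 and SLC2A3 rose by 0.17 ± 0.03 and 0.29 ± 0.05. PFKFB4, a regulator of glycolysis, was at 12.5, 13 and 12.4 CPM in DMSO and at 18.6, 16.4 and 16.8 with SHP1705 (0.45 ± 0.09, adjusted p = 0.00361). At 24 h 16 of 31 tested rose and 0 fell.

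**Figure D5:**
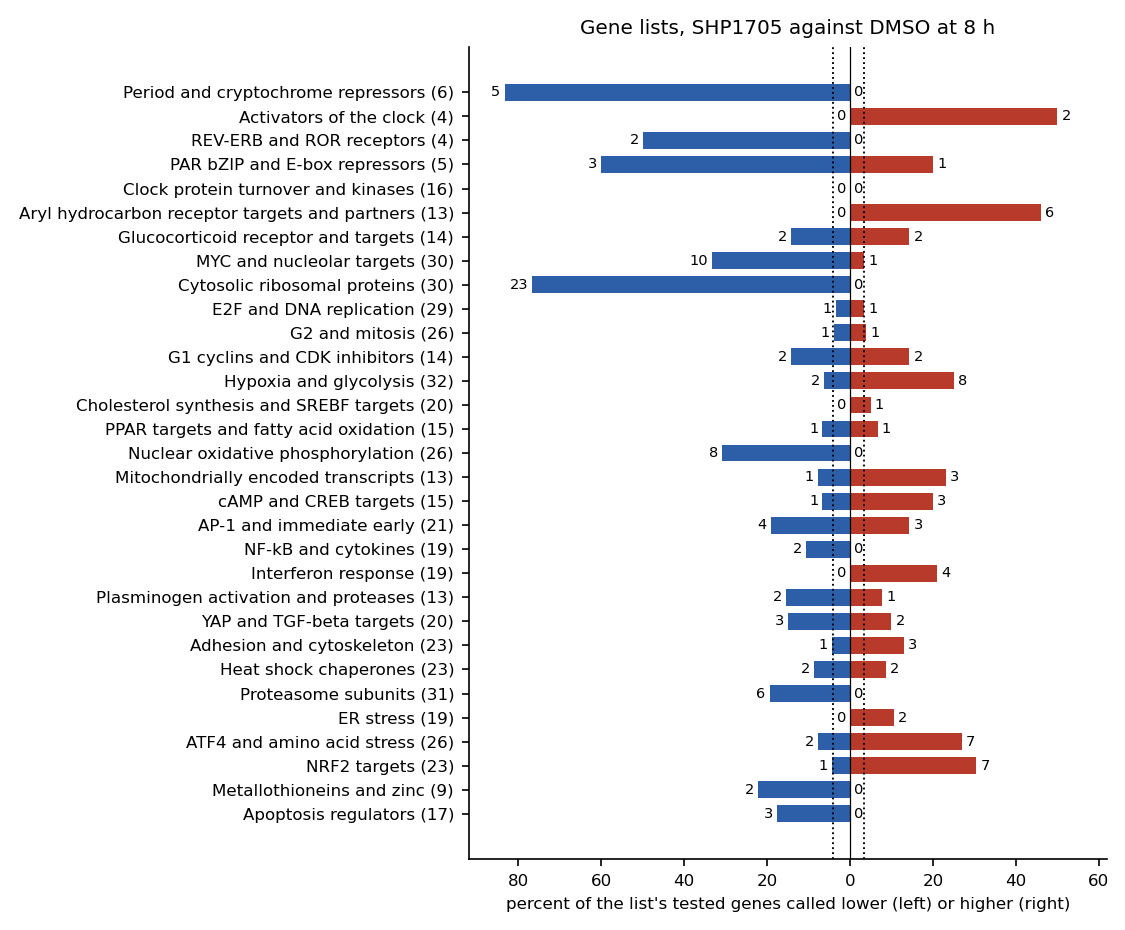
Bars give the percent of the tested members of each list that were called higher (right) or lower (left) at 8 h, with the number tested in brackets and the 3.45% and 4.08% of all genes as dotted lines. Clock lists, ribosomal proteins and aryl hydrocarbon receptor targets reach furthest, with 5 of 6, 23 of 30 and 6 of 13 called in 1 direction.

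Stress lists held more calls in the higher than in the lower direction for ATF4, NRF2 and ER stress, and not for chaperones or metallothioneins. Of 26 genes of ATF4 and amino acid stress 7 rose and 2 fell. DDIT4, an inhibitor of mTORC1, was at 127, 139 and 123 CPM in DMSO and at 173, 186 and 171 with SHP1705 (0.44 ± 0.05, adjusted p = 3.94e-05). ATF4 itself was at 137, 133 and 126 CPM in DMSO and at 126, 120 and 114 with SHP1705 (-0.14 ± 0.04, adjusted p = 0.0306), and its call was lost without DMSO replicates 1 or 2 or SHP1705 replicates 2 or 3. The number called higher in that list was 4, 3 and 5 without DMSO replicates 1, 2 and 3, and 5, 3 and 5 without SHP1705 replicates 1, 2 and 3, and 0 to 1 were lower in these fits. Of 23 targets of NRF2, the regulator of antioxidant genes, 7 rose and 1 fell. GCLM, a subunit of the enzyme that starts glutathione synthesis, was at 113, 125 and 123 CPM in DMSO and at 145, 138 and 147 with SHP1705 (0.26 ± 0.04, adjusted p = 0.000377). SLC7A11, the cystine transporter gene, was at 45.7, 46.9 and 52.5 CPM in DMSO and at 63.4, 63 and 58.2 with SHP1705 (0.35 ± 0.06). OSGIN1, the member that fell, was at 15.6, 14.4 and 17.3 CPM in DMSO and at 10.7, 10.4 and 10.7 with SHP1705 (-0.57 ± 0.06, adjusted p = 3.87e-05). The number of NRF2 targets called higher was 5, 4 and 5 without DMSO replicates 1, 2 and 3, and 4, 6 and 4 without SHP1705 replicates 1, 2 and 3, and it was 2 with replicate 1 as the only SHP1705 library.

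Of 23 heat shock chaperone genes 2 rose and 2 fell. DNAJB4 (0.18 ± 0.04) and HSPA4L (0.12 ± 0.04) were higher and HSPA8 (-0.08 ± 0.02) and HSP90AA1 lower, and the calls of DNAJB4, HSPA4L and HSPA8 were lost in 2, 6 and 4 of the 6 fits that each left out 1 library. Of 19 ER stress genes 2 rose and 0 fell. HERPUD1 (0.18 ± 0.05) was lost without DMSO replicates 1, 2 or 3 or SHP1705 replicates 2 or 3. SEL1L, which acts in the removal of misfolded proteins, was at 113, 113 and 113 CPM in DMSO and at 129, 128 and 128 with SHP1705 (0.18 ± 0.03, adjusted p = 0.00131). Of 9 metallothionein and zinc genes 2 fell and 0 rose. MT1E (-0.18 ± 0.05) was lost without DMSO replicates 1 or 2 or SHP1705 replicates 1 or 2. MT2A, which encodes a metal-binding protein, was at 197, 211 and 213 CPM in DMSO and at 153, 138 and 162 with SHP1705 (-0.45 ± 0.05, adjusted p = 7.18e-05).

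Hormone and second messenger lists gave few calls each. Of 14 genes of the glucocorticoid receptor and its targets 2 rose and 2 fell. NR3C1, the gene of the receptor, was at 146, 154 and 155 CPM in DMSO and at 182, 179 and 181 with SHP1705 (0.25 ± 0.03, adjusted p = 0.000219). ERRFI1, a feedback inhibitor of EGFR, rose by 0.17 ± 0.03. ANGPTL4, an inhibitor of lipoprotein lipase, fell with PER1 and was at 15.3, 14.2 and 17.1 CPM in DMSO and at 10.9, 11.1 and 10.3 with SHP1705 (-0.53 ± 0.08, adjusted p = 0.000472). PPARA, the gene of a receptor that drives fatty acid oxidation, was at 20.1, 18.8 and 18.7 CPM in DMSO and at 25.7, 26.3 and 24.5 with SHP1705 (0.41 ± 0.07, adjusted p = 0.00122). PDE7B, a cAMP phosphodiesterase gene, was at 19.9, 19.5 and 18.3 CPM in DMSO and at 30.2, 27.8 and 28.3 with SHP1705 (0.58 ± 0.07, adjusted p = 6.23e-05). PDE4D, another, rose by 0.25 ± 0.04, and of 15 genes listed for cAMP signalling 3 rose and 1 fell. SIK1, the member that fell (-0.24 ± 0.06), and CREB1 (0.14 ± 0.04) were lost in 4 and 5 of the 6 fits that each left out 1 library.

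Of 21 immediate early and AP-1 genes 3 rose and 4 fell. Those that rose numbered 2, 1 and 2 without DMSO replicates 1, 2 and 3, and 3, 1 and 1 without SHP1705 replicates 1, 2 and 3. Those that fell numbered 2, 1 and 1 without DMSO replicates 1, 2 and 3, and 2, 1 and 1 without SHP1705 replicates 1, 2 and 3. FOSL2, which encodes an AP-1 subunit, was at 290, 295 and 290 CPM in DMSO and at 343, 366 and 361 with SHP1705 (0.29 ± 0.03, adjusted p = 8.94e-06). IER2, an immediate early gene, was at 72.9, 72.6 and 78.1 CPM in DMSO and at 59.7, 61 and 62.6 with SHP1705 (-0.29 ± 0.04, adjusted p = 0.000231). JUN, at -0.12 ± 0.03, was lost in 6 of the 6 fits that each left out 1 library. Of 19 NF-kB and cytokine genes 2 fell and 0 rose. LIF (-0.20 ± 0.06), 1 of them, was lost without DMSO replicates 1 or 2 or SHP1705 replicates 1, 2 or 3. IL11, a cytokine gene, was at 57.5, 57.9 and 55.3 CPM in DMSO and at 42.9, 45.8 and 48.9 with SHP1705 (-0.31 ± 0.05, adjusted p = 0.0013). Of 19 interferon response genes 4 rose and 0 fell, and the rises numbered 3, 2 and 2 without DMSO replicates 1, 2 and 3, and 2, 4 and 2 without SHP1705 replicates 1, 2 and 3. IFIT3, an interferon-induced gene, was at 56.9, 56.4 and 58.6 CPM in DMSO and at 70.7, 63.6 and 66.1 with SHP1705 (0.22 ± 0.04, adjusted p = 0.00267). Of 20 cholesterol synthesis genes SCD was the 1 that was called (0.12 ± 0.03, adjusted p = 0.0299), and it was lost without DMSO replicates 1 or 3 or SHP1705 replicates 1 or 2.

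Among called genes with a mean of 5 CPM or more, the 15 largest rises and 15 largest falls held several genes outside these lists. ATOH8, which encodes a bHLH factor, was at 13.7, 15.3 and 15 CPM in DMSO and at 22.1, 22.3 and 20.7 with SHP1705 (0.57 ± 0.07, adjusted p = 7.5e-05). SHISA2, which encodes a membrane protein of the endoplasmic reticulum, was at 17.4, 15.7 and 17.1 CPM in DMSO and at 24.7, 24.3 and 25.7 with SHP1705 (0.57 ± 0.06, adjusted p = 9.41e-06). RNF144A, a ubiquitin ligase gene, rose by 0.55 ± 0.11, and OTUB2, a deubiquitinase gene, by 0.47 ± 0.07. JMY, which encodes an actin nucleator, rose by 0.52 ± 0.09, KLHL24 by 0.47 ± 0.10 and INSYN2B by 0.48 ± 0.11. SORBS2, CYP2S1 and PRICKLE4 were at 0.51 ± 0.14, 0.48 ± 0.12 and 0.48 ± 0.12, and their calls were lost in 5, 5 and 3 of the 6 fits that each left out 1 library. RRAD, which encodes a small GTPase, was at 10.4, 9.47 and 9.43 CPM in DMSO and at 7.06, 6.09 and 7.64 with SHP1705 (-0.49 ± 0.09, adjusted p = 0.00169). XAGE1A, a cancer testis antigen gene on chromosome X with a near-identical copy that can share its reads, was at 201, 232 and 207 CPM in DMSO and at 154, 150 and 159 with SHP1705 (-0.47 ± 0.06, adjusted p = 6.23e-05).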

How the data were processed

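Gene counts of polyA RNA-seq libraries were analysed as deposited, in tables of 54583 genes. Per the submitters' processing notes, reads were processed with Trimmomatic, FastQC, HISAT2 and featureCounts on hg38; no source used here names the strand setting or the annotation. The 12 libraries of each set tested were fitted together with edgeR (version 4.0.16, R 4.3.3) with 1 term per group, TMM scaling, a filter at 10 counts with a total of 15, and a prior count of 0.125. SHP1705 was compared with DMSO by quasi-likelihood tests with Benjamini-Hochberg adjustment at 8 h (MG132 set) and at 24 h (carfilzomib set). The difference of these effects came from a fit of all 36 libraries in 12 groups. On simulated counts (8 h comparison, 16044 genes) 37, 42, 48 and 50 of 50 changed genes were recovered at 1.25-, 1.5-, 2- and 4-fold. Of the calls 4.32% were false. The changed genes had a DMSO level over 1 CPM, and all groups otherwise shared the DMSO means. Calls at lower levels and a split of replicates as in POSTN were thus not covered. Named genes are the clock members, the 15 largest rises and falls at a mean of 5 CPM or more with groups that do not overlap, up to 6 called genes of each list by adjusted p, and genes set by POSTN-bearing libraries; some genes are not reported here, and others are named as chosen after their values were seen. The members and the 39 lists were chosen with earlier results of these data known. Names and coordinates are from RefSeq (GRCh38.p14). Of 23 genes searched for a promoter window, 22 had one. Alternatives were RLE factors, no filter, DESeq2 1.42.0, a replicate block, only the compared libraries, leaving out each library and, added after the data were seen, fits without POSTN-bearing libraries or the carfilzomib 8 h set. The carfilzomib 8 h comparison was not tested, since its clock genes went against the labels.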

Additional observations from a re-analysis of the deposited data

Results flagged for a closer look

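The response to SHP1705 differed between 24 h and 8 h in 4 genes by the test of the difference itself over all 36 libraries. In that edgeR test 791 of 17389 genes had an unadjusted p under 0.05, and the times come from separate sets. The 36 libraries include the carfilzomib 8 h set, in which clock genes did not follow the labels. Without that set 214 of 17793 genes had a called difference, including these 4 and also CRY1, PER3, PER1, PER2 and CRY2. MTHFD1L, a mitochondrial folate enzyme gene, differed by -1.05 ± 0.14 (adjusted p = 0.000178), with -0.16 ± 0.05 at 8 h and -1.21 ± 0.07 at 24 h. GNPDA1, which encodes a glucosamine-6-phosphate deaminase, differed by -0.82 ± 0.13 (adjusted p = 0.00336), with -0.11 ± 0.04 at 8 h and -0.93 ± 0.07 at 24 h. MYO19, a mitochondrial myosin gene, differed by -0.73 ± 0.13 (adjusted p = 0.0152), with -0.09 ± 0.07 at 8 h and -0.81 ± 0.07 at 24 h. MYL9, a myosin light chain gene, differed by 0.42 ± 0.07 (adjusted p = 0.0152), with -0.07 ± 0.03 at 8 h and 0.35 ± 0.05 at 24 h. At 8 h MTHFD1L was the 1 of these that was called, at 38.4, 37.1 and 40.5 CPM in DMSO and 35.4, 34.1 and 34.7 with SHP1705.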

How the results depend on the processing

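At 8 h the 1249 calls were 1253 with RLE factors (1177 shared), 1470 without a filter, 1423 with DESeq2 and 1449 with only the 6 libraries. They were 619 to 892 when 1 library was left out, 235 with the 1 SHP1705 library without POSTN, and 150 with no POSTN-bearing library outside the combination. The 722 calls at 24 h were 1171 with only the 6 libraries and 419 to 687 when 1 library was left out. The 4 called differences between times were 50 without a filter, 16 with DESeq2, 2 to 5 when 1 library was left out and 214 without the carfilzomib 8 h set. The cause of these shifts was not tested, and fits with fewer libraries gave more calls in some cases and fewer in others. Genes without a call changed sign: RORA was at -0.22 without SHP1705 replicate 2, -0.06 without DMSO replicate 3, 0.21 without SHP1705 replicate 1 and -0.40 without POSTN-bearing libraries in both such fits. RORB was at -0.11 without SHP1705 replicate 1, -0.10 without DMSO replicate 2 and 0.39 without SHP1705 replicate 3. ARNTL2 was at 0.0039 without SHP1705 replicate 2 and -0.055 without SHP1705 replicate 3. With the replicate block, 1175, 773 and 2 genes were called at 8 h, at 24 h and for the difference. Same-numbered libraries did not deviate together at 8 h (r = -0.021, -0.080 and -0.002 over 10457 genes). With so few libraries this cannot show whether they were handled together. Single-gene calls were lost 258 times when 1 library was left out, and for 87 named genes with the 1 SHP1705 library without POSTN. Levels under 1 CPM, such as CIART, rest on few counts.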
